A study of Mus musculus with 24 samples.

Results

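Microglia of 9-month-old APP/PS1 mice were compared with microglia of control mice of the same age. The APP/PS1 animals (genotype tg) carry a mutant human-mouse APP and a further transgene, both driven, as is generally known of this line, by the mouse prion promoter and therefore expressed mainly outside microglia. The control animals are given as wt, with no further allele or treatment named for either genotype. All donors were male. Of the 24 libraries of the study, 7 form this comparison: 3 of tg (tg 1, 2 and 3) and 4 of wt (wt 1, 2_4, 3 and 5). A library named tg 4 held 6325 counts, far fewer than the minimum set for the comparison, and was left out. The labels do not explain the name 2_4. They do not say that libraries come from separate animals either, so every p-value refers to the spread among the libraries alone. The wider study holds the same genotypes at 4 and 6 months, with 4 libraries per group. Hippocampal cells were dissociated with enzymes in the cold, and live nucleated cells with high CD11b, intermediate CD45 and no CD49d were sorted for bulk RNA sequencing.

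As background, microglia are the resident macrophages of the brain. Around amyloid plaques a part of them takes on a state called disease-associated microglia (DAM), usually described in 2 stages: a first set of genes that includes Apoe and Tyrobp, and a second set, dependent on the lipid-sensing receptor TREM2, that includes Cst7, Clec7a, Itgax, Axl, Lpl, Spp1 and Igf1. Genes of the resting or homeostatic state, such as P2ry12, Tmem119 and Cx3cr1, are known to be lower in that state. In bulk RNA, a larger share of cells in a state and more RNA per cell cannot be told apart.

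The 7 libraries held 9193425 to 14198506 counts, and 13653 of 36982 genes reached a CPM (counts scaled to the library total) of 1 in at least 3 of them and were tested. A gene under 1 CPM in every library of 1 genotype passed only through the other genotype. For such a gene the filter largely fixed the direction of the difference. All levels below are CPM scaled by TMM factors, with the tg values in the order tg 1, 2 and 3, and 3 counts in a library correspond to 0.209 to 0.337 CPM. Genes detected (15305 to 17912), the share of mitochondrial counts (0.649% to 0.985%) and the share of ribosomal protein counts (0.515% to 0.675%) overlapped between the genotypes, with exact two-sided permutation p-values of 0.629, 0.771 and 0.457 over 35 splits, where the smallest possible p is 0.0286. The 12 microglia markers together made up 87180, 85608 and 69746 CPM in tg and 85015, 93673, 83565 and 96489 CPM in wt 1, 2_4, 3 and 5. All 12 had a negative log2 fold change, with a median of −0.18. In 2 every tg library lay below every wt library, and in 4 without wt 1, where 2.97% and 5.8% of all tested genes did. Of the sort antigens, Itgam (CD11b) was at 267, 262 and 282 CPM in tg, 307 CPM in wt 1 and 298, 389 and 308 CPM in wt 2_4, 3 and 5, with every tg library below every wt library. Ptprc (CD45) overlapped, and Itga4 (CD49d) was at most 0.674 CPM.

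The library wt 1 stands apart from the other wt libraries for many of the genes described here, so its value is shown apart for the genes given by library, and the counts and the differences that moved most are given again without wt 1. Because wt 1 was noticed for its levels of DAM genes, leaving it out fixes the direction of those genes in part, and the values without it are not independent evidence. Of the genes in the transgene constructs, the mouse gene App was at 162, 172 and 163 CPM in tg and 117 CPM in wt 1. It was at 139.8, 155 and 165 CPM in wt 2_4, 3 and 5, with overlapping groups. Prnp, whose promoter and untranslated sequence are part of such constructs, was at 30.9, 22.4 and 20.8 CPM in tg, 11 CPM in wt 1 and 16, 14.8 and 9.22 CPM in wt 2_4, 3 and 5. For Prnp the groups did not overlap (log2 fold change 0.95, SE 0.32). Library wt 1 lay within the range of the other wt libraries. The labels do not say how reads of the transgenes were handled, so App counts in tg may include reads of the human-mouse APP.

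Many genes of the second DAM stage were higher in tg. Lpl, Cst7, Clec7a and Axl were highest in the 3 tg libraries, and Apoe of the first stage was 2.44-fold higher. The means were 5.53-fold and 5.02-fold those of wt for Lpl and Cst7. With 7 libraries the unadjusted p by edgeR was 0.000208 for Lpl, but 0.0464 for Cst7 and 0.0218 for Clec7a. Genes outside the lists, such as Arnt2 (0.000263) and Abhd5 (0.000337), had smaller p-values than Cst7 and Clec7a. Homeostatic genes lay slightly lower, and the markers P2ry12, Cx3cr1 and Tmem119 overlapped between the groups. Across all genes no change passed the test with 7 libraries. By edgeR's quasi-likelihood test with Benjamini-Hochberg adjustment 0 genes (0%) were called higher and 0 (0%) lower in tg at an adjusted p under 0.05, and the adjusted p of every gene was 0.999991. The log2 fold changes over 7 libraries below therefore come with their standard error (SE) and with that adjusted p. At an unadjusted p under 0.05 there were 284 higher (2.08%) and 281 lower (2.06%). DESeq2 called 21 higher and 8 lower, among them the DAM genes Lpl, Capg, Axl, Apoe and Lyz2, and limma-voom with sample quality weights called Lpl. Groups are called separated below where the tg and wt ranges do not overlap. All tg values exceeded all wt values in 432 genes (3.16%) and fell short of them in 406 (2.97%). With any 1 library left out these counts were 672 to 1115 and 668 to 905 of 13653, so separation is more frequent in the smaller groups.

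Without wt 1, edgeR called 3 genes higher (0.022%) and 0 lower (0%). The 3 genes were Lpl, Cst7 and Clec7a, all of DAM stage 2. DESeq2 called 69 higher and 23 lower, and limma-voom called 5 higher (Cst7, Lpl, Clec7a, Apoe and Lgals3bp) and 0 lower. At an unadjusted p under 0.05 edgeR found 409 higher (3%) and 307 lower (2.25%). The tg libraries lay wholly above the wt range in 860 genes (6.3%) and wholly below it in 792 (5.8%). Counts of separated list members below have these shares as background, and 3.16% above and 2.97% below with 7 libraries. The edgeR fit over all ages called 4 higher without wt 1, the same 3 and Apoe. The number of calls changed when a further library was left out. It was 0 without tg 1, without tg 2, without tg 3 or without wt 2_4, 1 without wt 3 and 3 without wt 5. Each of these fits also has fewer libraries, and the part of that in the lost calls was not tested. The biological coefficient of variation was 57.8% with 7 libraries and 56.1% without wt 1.

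Cst7 encodes cystatin F, an inhibitor of lysosomal cysteine proteases. Its level was 415, 399.7 and 519 CPM in tg, 296 CPM in wt 1 and 16.1, 30.4 and 11.8 CPM in wt 2_4, 3 and 5. The 3 tg libraries lay highest, wt 1 came next, and the other wt libraries were lower by an order of magnitude. The log2 fold change of tg over wt was 2.33 (SE 1.00) with 7 libraries, and Cst7 rose by 4.50 (SE 0.37) on the log2 scale without wt 1, with an adjusted p of 0.0154 by edgeR. As a ratio of means this is a 5.02-fold and a 22.9-fold difference, from 445 ± 64.8 CPM in tg against 88.6 ± 138 in all wt libraries and 19.5 ± 9.73 without wt 1 (mean ± SD, n = 3, 4 and 3 libraries, edgeR test).

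Clec7a encodes dectin-1, a pattern recognition receptor of myeloid cells. It was at 215, 203 and 207 CPM in tg, 166 CPM in wt 1 and 44.6, 34.9 and 23.5 CPM in wt 2_4, 3 and 5. Again wt 1 lay next to the tg libraries, without reaching them. The log2 fold change was 1.64 (SE 0.59) with 7 libraries, and Clec7a rose by 2.60 (SE 0.25) without wt 1, with an adjusted p of 0.032 by edgeR.

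Lpl, the lipoprotein lipase that releases fatty acids from triglyceride-rich particles, gave the smallest p of all genes with 7 libraries. Its level was 185, 172 and 152 CPM in tg, 59.7 CPM in wt 1 and 25.5, 21 and 16.5 CPM in wt 2_4, 3 and 5. Here wt 1 was nearer to the other wt libraries than to tg. The log2 fold change was 2.47 (SE 0.41) with 7 libraries, and Lpl rose by 3.01 (SE 0.22) without wt 1, with an adjusted p of 0.014 by edgeR; the ratio of means was 5.53-fold and 8.07-fold.

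The sequence before the start site is shown for 4 of the receptors and effectors with separated groups, as context for their shared pattern. Each line gives the 250 bases upstream of the most upstream RefSeq start site in GRCm38.p6, 5′ to 3′ on the gene's strand, and capitals mark a match on either strand to the core GAGGAA bound by PU.1, the myeloid master factor, to the AP-1 site TGANTCA, to the E-box CACGTG or to the interferon element GAAANNGAA. The deposited counts rest on another build, GRCm39, so these coordinates describe the RefSeq window only. Lpl has no entry in the RefSeq promoter table.
Cst7, chr2:150570165-150570414, plus strand: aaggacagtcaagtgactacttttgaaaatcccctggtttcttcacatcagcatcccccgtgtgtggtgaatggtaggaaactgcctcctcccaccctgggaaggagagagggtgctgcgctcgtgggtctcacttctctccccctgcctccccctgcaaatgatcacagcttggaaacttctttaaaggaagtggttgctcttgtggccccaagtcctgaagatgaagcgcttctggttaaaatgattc
Clec7a, chr6:129472786-129473035, minus strand: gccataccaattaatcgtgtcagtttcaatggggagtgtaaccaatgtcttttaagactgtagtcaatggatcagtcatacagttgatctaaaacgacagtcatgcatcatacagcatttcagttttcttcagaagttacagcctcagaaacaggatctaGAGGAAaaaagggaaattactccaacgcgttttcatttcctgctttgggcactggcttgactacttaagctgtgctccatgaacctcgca
Axl, chr7:25788734-25788983, minus strand: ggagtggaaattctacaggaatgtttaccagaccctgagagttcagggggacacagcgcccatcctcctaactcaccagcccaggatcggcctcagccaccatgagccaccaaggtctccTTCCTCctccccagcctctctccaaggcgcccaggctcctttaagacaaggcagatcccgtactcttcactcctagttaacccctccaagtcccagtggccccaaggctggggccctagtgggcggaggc
Itgax, chr7:128129300-128129549, plus strand: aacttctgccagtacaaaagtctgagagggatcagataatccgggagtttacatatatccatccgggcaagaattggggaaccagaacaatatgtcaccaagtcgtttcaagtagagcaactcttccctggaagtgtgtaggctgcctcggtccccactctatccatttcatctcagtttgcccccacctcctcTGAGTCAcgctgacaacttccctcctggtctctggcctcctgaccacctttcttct

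The Cst7 window holds none of the 4 motifs, the Clec7a and Axl windows hold the PU.1 core once each, and the Itgax window holds the AP-1 site once. Of the 34 tested DAM stage 2 genes, 27 have a RefSeq window. The PU.1 core is in 11 of those 27 (40.7%), against 23% of the windows of 9304 tested genes and 23.1% of 27026 windows in all. The AP-1 site is in 4 (14.8%, against 3.96% and 6.85%), the interferon element in 4 (14.8%, against 6.13% and 7.16%) and the E-box in 2 (7.41%, against 8.64% and 6.04%). Matches of different motifs may overlap, and a match is a description of letters, not a binding site.

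**Figure D1:**
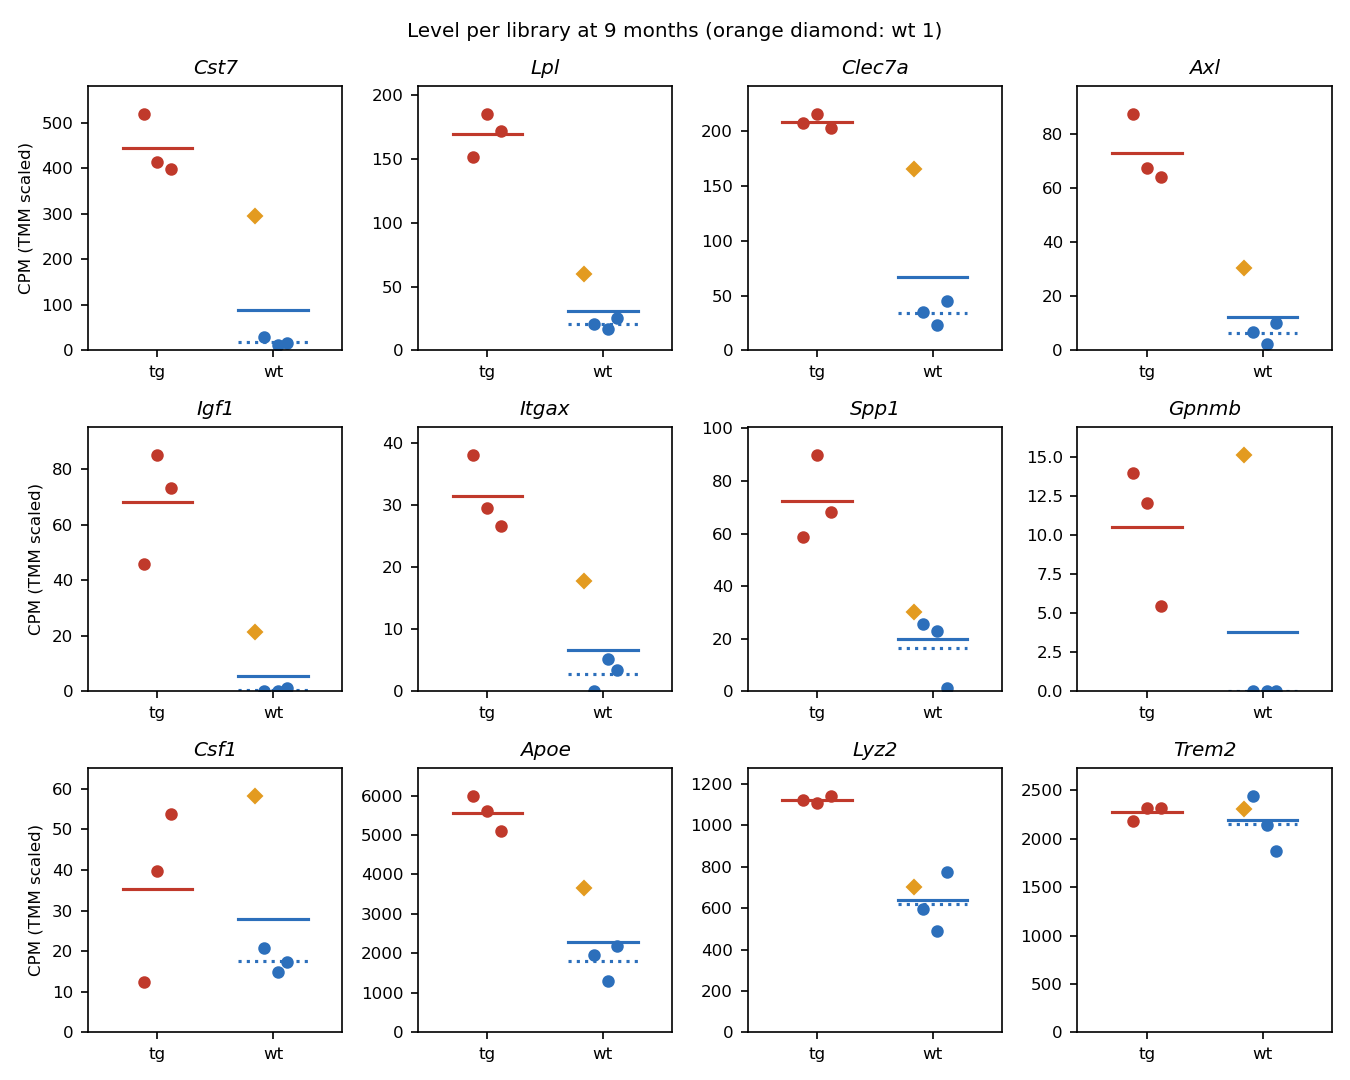
CPM (y axis, linear, from 0) of 12 disease-associated microglia genes in the 3 tg and 4 wt libraries at 9 months; each point is a library, solid lines are group means, the orange diamond is wt 1 and the dotted line is the wt mean without it. Wt 1 lies between the groups for Cst7, Clec7a, Axl, Igf1 and Itgax, at or above the tg range for Gpnmb and Csf1, and within the other wt libraries for Lyz2.

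As a group, 32 of the 34 tested DAM stage 2 genes had a positive log2 fold change, with a median of 0.64, against −0.00 over all 13653 genes. None was called with 7 libraries, 16 had an unadjusted p under 0.05, and in 16 the lowest tg library exceeded the highest wt library. The opposite order occurred in 0. Without wt 1 the median was 0.87, 33 were positive and 25 had fully separated groups; without tg 3 24 were separated, against 1115 of all 13653 genes. The remaining members were below the filter: Apoc1 was at 0.867, 0.385 and 0.798 CPM in tg and 0 in every wt library, and Mamdc2 was at 26.3, 12.3 and 0 CPM in tg with at most 0.905 CPM in wt.

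Among receptors and surface proteins of the second stage, Axl, a receptor tyrosine kinase for apoptotic cell debris, was at 67.4, 64.2 and 87.1 CPM in tg, 30.3 CPM in wt 1 and 10.2, 6.68 and 2.25 CPM in wt 2_4, 3 and 5. The log2 fold change was 2.56 (SE 0.69), and 3.49 (SE 0.51) without wt 1. Itgax, the integrin CD11c, was at 29.6, 26.8 and 38.1 CPM in tg, 17.7 CPM in wt 1 and 3.49, 0 and 5.17 CPM in wt 2_4, 3 and 5 (log2 fold change 2.26, SE 1.1), and without wt 1 the log2 fold change was 3.47 (SE 1.1). Both had separated groups with wt 1 as the highest wt library. The small surface glycoprotein Cd52 was at 219, 189.7 and 196 CPM in tg, 188 CPM in wt 1 and 114, 137 and 104 CPM in wt 2_4, 3 and 5. The tetraspanin Cd63 was at 243, 214 and 232 CPM in tg, 185 CPM in wt 1 and 160.3, 196 and 167 CPM in wt 2_4, 3 and 5. Both were separated as well. Trem2 itself was at 2318, 2318 and 2181 CPM in tg, 2302 CPM in wt 1 and 1878, 2437 and 2137 CPM in wt 2_4, 3 and 5. Its groups overlapped (log2 fold change 0.05, SE 0.10). Cd9 and Cd68 overlapped too, with log2 fold changes of 0.17 and 0.09.

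Among secreted factors, Igf1, a growth factor, was at 84.9, 73.3 and 45.9 CPM in tg, 21.2 CPM in wt 1 and 1.14, 0 and 0 CPM in wt 2_4, 3 and 5. The log2 fold change was 3.63 (SE 1.44) with 7 libraries and 7.36 (SE 1.00) without wt 1, where 2 of the 3 wt libraries held 0 counts and the fitted value depends on the prior count. Spp1, osteopontin, was at 89.8, 68.2 and 58.8 CPM in tg, 30.2 CPM in wt 1 and 1.14, 25.8 and 22.8 CPM in wt 2_4, 3 and 5. Both had separated groups. Of the chemokines, Ccl4 was separated by a narrow margin (67.4, 72.6 and 80.9 CPM in tg and 65.1, 38.7, 41.8 and 42 CPM in wt 1, 2_4, 3 and 5), while Ccl3 and Ccl6 overlapped through wt 1 alone (69.7 and 699 CPM). Csf1, the growth factor of microglia, was at 39.7, 53.9 and 12.4 CPM in tg, 58.1 CPM in wt 1 and 17.4, 20.8 and 15 CPM in wt 2_4, 3 and 5, so its highest library was a wt one.

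The remaining second-stage genes include lysosomal, cytoskeletal and adhesion proteins. Gusb, a lysosomal glucuronidase, was at 810.3, 744 and 657 CPM in tg, 589.8 CPM in wt 1 and 465, 310.3 and 437 CPM in wt 2_4, 3 and 5 (log2 fold change 0.71, SE 0.20). Capg, an actin-capping protein, was at 137, 107 and 109 CPM in tg, 69.2 CPM in wt 1 and 55.3, 69.1 and 68.7 CPM in wt 2_4, 3 and 5. It gave a log2 fold change of 0.84 (SE 0.17) and wt 1 lay among the other wt libraries. Lgals3bp, a galectin-binding secreted protein, was at 561, 549 and 544 CPM in tg, 456 CPM in wt 1 and 247, 309.5 and 201 CPM in wt 2_4, 3 and 5 (log2 fold change 0.86, SE 0.25). Cadm1, a cell adhesion molecule, was separated with a log2 fold change of 0.56 (SE 0.16), as was the pyrophosphate transporter Ank with 1.06 (SE 0.36); their wt 1 levels were 299.8 and 37.2 CPM. Gpnmb, a lysosomal glycoprotein, was at 12, 5.48 and 14 CPM in tg, 15.1 CPM in wt 1 and 0, 0 and 0 CPM in wt 2_4, 3 and 5. Wt 1 exceeded all tg libraries for Gpnmb, and the other wt libraries held 0 counts; without wt 1 tg was at least 40.7-fold higher, taking 3 counts per library as the floor. Fabp5, a fatty acid binding protein, Lilrb4a, an inhibitory receptor, and Dkk2, a Wnt antagonist, were also highest in wt 1, at 4.28, 7.14 and 9.49 CPM.

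The position of wt 1 was measured on genes whose other 6 libraries do not overlap, a choice that makes no use of wt 1. On a scale of log2(CPM + 1) on which 0 is the mean of wt 2_4, 3 and 5 and 1 is the mean of tg, wt 1 had a median position of 0.83 over the 25 such DAM stage 2 genes, from 0.127 for Capg to 1.79 for Fabp5. It was among or beyond the tg libraries in 9 of the 25 and among or beyond the other wt libraries in 2. For the 14 homeostatic genes of this kind the median was 0.57, with 7 among or beyond tg and 2 among or beyond the other wt libraries. Over all 860 higher genes, which include the DAM genes, the median was 0.728, with 428 among or beyond tg and 300 among or beyond the other wt libraries, and over all 792 lower genes it was 0.591, with 386 and 292. A library unrelated to either group need not lie at 0 on this scale, so these positions are a description without a test. Single genes placed wt 1 on either side. Its Prnp level, 11 CPM, lay within the 9.22 to 16 CPM of the other wt libraries, while its Gpnmb level, 15.1 CPM, exceeded all tg libraries. Whether the DAM levels of wt 1 came from the animal, the sort, the library or a label was not tested.

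**Figure D2:**
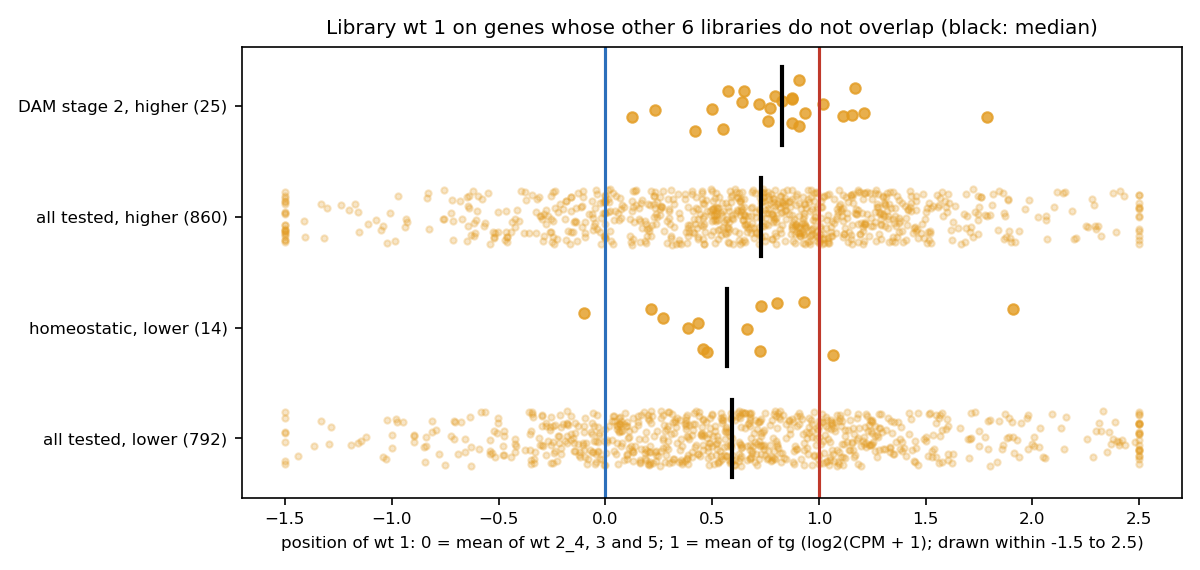
Position of library wt 1 (x axis, 0 at the mean of the other 3 wt libraries and 1 at the mean of the 3 tg libraries, on log2(CPM + 1), drawn within −1.5 to 2.5) for genes whose other 6 libraries do not overlap; each point is a gene and black bars are medians. The medians are 0.83 for 25 DAM stage 2 genes, 0.728 for all 860 higher genes, 0.57 for 14 homeostatic genes and 0.591 for all 792 lower genes.

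Of the 9 first-stage DAM genes, 8 had a positive log2 fold change and 1, Timp2, a negative one. The median was 0.20, 4 were separated upwards and 1 downwards, and 5 had an unadjusted p under 0.05. Of all tested genes 3.16% were separated upwards and 2.97% downwards, and 2.08% were higher at an unadjusted p under 0.05 by edgeR. Apoe, the main lipid carrier of the brain, was at 5605, 5093 and 5980.0 CPM in tg, 3664 CPM in wt 1 and 2199, 1957 and 1305 CPM in wt 2_4, 3 and 5. The log2 fold change was 1.29 (SE 0.29), and 1.61 (SE 0.19) without wt 1, with an adjusted p of 0.117 by edgeR. In the edgeR fit over all ages without wt 1, Apoe passed with an adjusted p of 0.0371. Lyz2, lysozyme, was at 1109, 1140.5 and 1121 CPM in tg, 701 CPM in wt 1 and 774, 594 and 491 CPM in wt 2_4, 3 and 5 (log2 fold change 0.81, SE 0.15). For Lyz2 wt 1 lay inside the range of the other wt libraries, and the tg libraries differed among themselves by less than the wt libraries did. Tyrobp, the signalling adaptor of TREM2, was at 1286, 1202 and 1418 CPM in tg, 1129 CPM in wt 1 and 854, 1059.8 and 989 CPM in wt 2_4, 3 and 5 (log2 fold change 0.37, SE 0.12). Ctsd, the protease cathepsin D, was separated by a narrow margin with a log2 fold change of 0.20; Ctsb overlapped through wt 1 and tg 3 and gave 0.43. B2m, Fth1 and Cstb overlapped. Timp2, a metalloprotease inhibitor, was at 136, 121 and 156 CPM in tg and 165, 157, 193 and 171 CPM in wt 1, 2_4, 3 and 5; with RLE factors or library totals its groups overlapped.

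Around TREM2, the wider list of plaque receptor and signalling genes showed no common direction: 17 of 31 were higher and 14 lower with a median of 0.02, while 12 were higher without tg 2 and 14 without wt 3. With 7 libraries 4 were separated upwards and 2 downwards, and without wt 1 6 and 2, with Clec7a called. The shares of all genes were 3.16% and 2.97%, and without wt 1 6.3% and 5.8%. Besides Clec7a, Axl and Tyrobp, Card9, an adaptor downstream of dectin-1, was separated upwards at 4.99, 5.29 and 13.2 CPM in tg and 3.47, 4.32, 2.23 and 0.112 CPM in wt 1, 2_4, 3 and 5. Gas6, the ligand of Axl, was at 269, 285 and 202 CPM in tg, 239.7 CPM in wt 1 and 188, 129.8 and 132 CPM in wt 2_4, 3 and 5, with wt 1 inside the tg range. Mertk, the receptor related to Axl, went the other way at 314, 312 and 344 CPM in tg, 353 CPM in wt 1 and 377, 411 and 449 CPM in wt 2_4, 3 and 5 (log2 fold change −0.30, SE 0.12). Ms4a6d, a membrane protein near an Alzheimer risk locus, was at 265, 229 and 178 CPM in tg, 322 CPM in wt 1 and 317, 298 and 282 CPM in wt 2_4, 3 and 5 (log2 fold change −0.44, SE 0.15). Both were separated downwards.

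In the lysosome list 27 of 38 genes were higher with a median of 0.14, and 3 were separated upwards: Ctsd, Gusb and Cd63. All 3 are also DAM genes and were counted above. Without wt 1 10 were separated upwards, and without tg 3 11, where 1115 of 13653 genes were. Hexa, a subunit of hexosaminidase, was at 1279.6, 1293 and 1099 CPM in tg, 1245 CPM in wt 1 and 882, 938 and 930.1 CPM in wt 2_4, 3 and 5, where wt 1 lay inside the tg range. Npc2, which carries cholesterol out of lysosomes, was at 1613, 1565 and 1342 CPM in tg and 1377, 1165, 1200.1 and 1272 CPM in wt 1, 2_4, 3 and 5, overlapping through wt 1 and tg 3. Among 29 lipid handling genes 18 were higher and the median was 0.11. In 4, Apoe, Lpl, Ch25h and Acaca, the groups were separated upwards. All of these but Acaca are also DAM genes and were counted above. Without wt 1 10 were separated upwards, among them the DAM gene Fabp5. The shares of all genes were 3.16% with 7 libraries and 6.3% without wt 1. Ch25h, which makes the oxysterol 25-hydroxycholesterol, was at 23.6, 22.1 and 32 CPM in tg, 20.9 CPM in wt 1 and 2.58, 7.79 and 0 CPM in wt 2_4, 3 and 5.

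Genes of cholesterol synthesis were mixed, with 13 of 21 higher and a median of 0.42 (0.12 without wt 5). Of these, 3 were separated upwards and 1 downwards, and 4 and 2 without wt 1. The shares of all genes were 3.16% and 2.97%, and without wt 1 6.3% and 5.8%. Hmgcs1, an early enzyme of the pathway, was at 58.8, 44.2 and 68.6 CPM in tg, 33.9 CPM in wt 1 and 39.4, 29.4 and 17.9 CPM in wt 2_4, 3 and 5 and was separated upwards (log2 fold change 0.92, SE 0.30). Ebp, a late enzyme, was separated downwards at 154, 125 and 141 CPM in tg, 179 CPM in wt 1 and 178, 197 and 168 CPM in wt 2_4, 3 and 5 (log2 fold change −0.37, SE 0.13). Srebf2, the transcription factor of the pathway, was separated upwards at 12.5, 10.8 and 23.1 CPM in tg and 10.6, 5.99, 9.26 and 3.71 CPM in wt 1, 2_4, 3 and 5, with tg 3 as the highest library.

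Homeostatic genes were lower by small amounts. Of 37 tested, 31 had a negative log2 fold change, with a median of −0.16; none was called, 8 had an unadjusted p under 0.05, and in 7 the tg libraries were all under the wt libraries. The count was 13 without tg 1 and 14 without wt 1, where 797 and 792 of all 13653 genes were. With 7 libraries 0 were separated upwards; without tg 3 there were 3 of 37, with 1115 of all genes. The separated genes were Crybb1, Ltc4s, Pmepa1, Selplg, Cd164, Fcrls and Sparc. Ltc4s, leukotriene C4 synthase, was at 465, 418 and 431 CPM in tg, 540.5 CPM in wt 1 and 553, 729.6 and 698 CPM in wt 2_4, 3 and 5 (log2 fold change −0.53, SE 0.14). Crybb1, a crystallin used as a microglia marker, was at 192, 239 and 240.0 CPM in tg, 278 CPM in wt 1 and 301, 386 and 323 CPM in wt 2_4, 3 and 5 (log2 fold change −0.53, SE 0.15). Pmepa1, an inhibitor and target of TGF-beta signalling, was at 57.1, 43.4 and 76.6 CPM in tg, 94.1 CPM in wt 1 and 84.6, 139 and 106 CPM in wt 2_4, 3 and 5 (log2 fold change −0.84, SE 0.25). Selplg, the ligand of P-selectin, was at 8079, 7828 and 7102 CPM in tg, 8197 CPM in wt 1 and 9148, 8961 and 10024 CPM in wt 2_4, 3 and 5 (log2 fold change −0.24, SE 0.09).

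The best known homeostatic markers overlapped. P2ry12, the purinergic receptor, was at 16487, 15284 and 11809.5 CPM in tg, 15448 CPM in wt 1 and 18346, 14473 and 17794 CPM in wt 2_4, 3 and 5. Cx3cr1, the fractalkine receptor, was at 8548, 9469 and 7383 CPM in tg, 8714 CPM in wt 1 and 10015, 8201 and 10193 CPM in wt 2_4, 3 and 5. In both tg 3 was the lowest library. Their log2 fold changes were −0.19 (SE 0.13) and −0.13 (SE 0.11), and that of Tmem119 was −0.23 (SE 0.12). Cst3, cystatin C and one of the most abundant transcripts of microglia, was at 34059, 30622 and 30359.9 CPM in tg, 33316 CPM in wt 1 and 38248, 44859 and 40792 CPM in wt 2_4, 3 and 5, with wt 1 inside the tg range (log2 fold change −0.31, SE 0.10). Vsir, an immune checkpoint protein, gave −0.30 (SE 0.12), with 1 tg library above wt 1. Rhob, a small GTPase that also responds to tissue dissociation, was at 185, 214 and 277 CPM in tg, 403 CPM in wt 1 and 267, 508 and 379.6 CPM in wt 2_4, 3 and 5 and overlapped by 1 library (log2 fold change −0.79, SE 0.23).

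**Figure D3:**
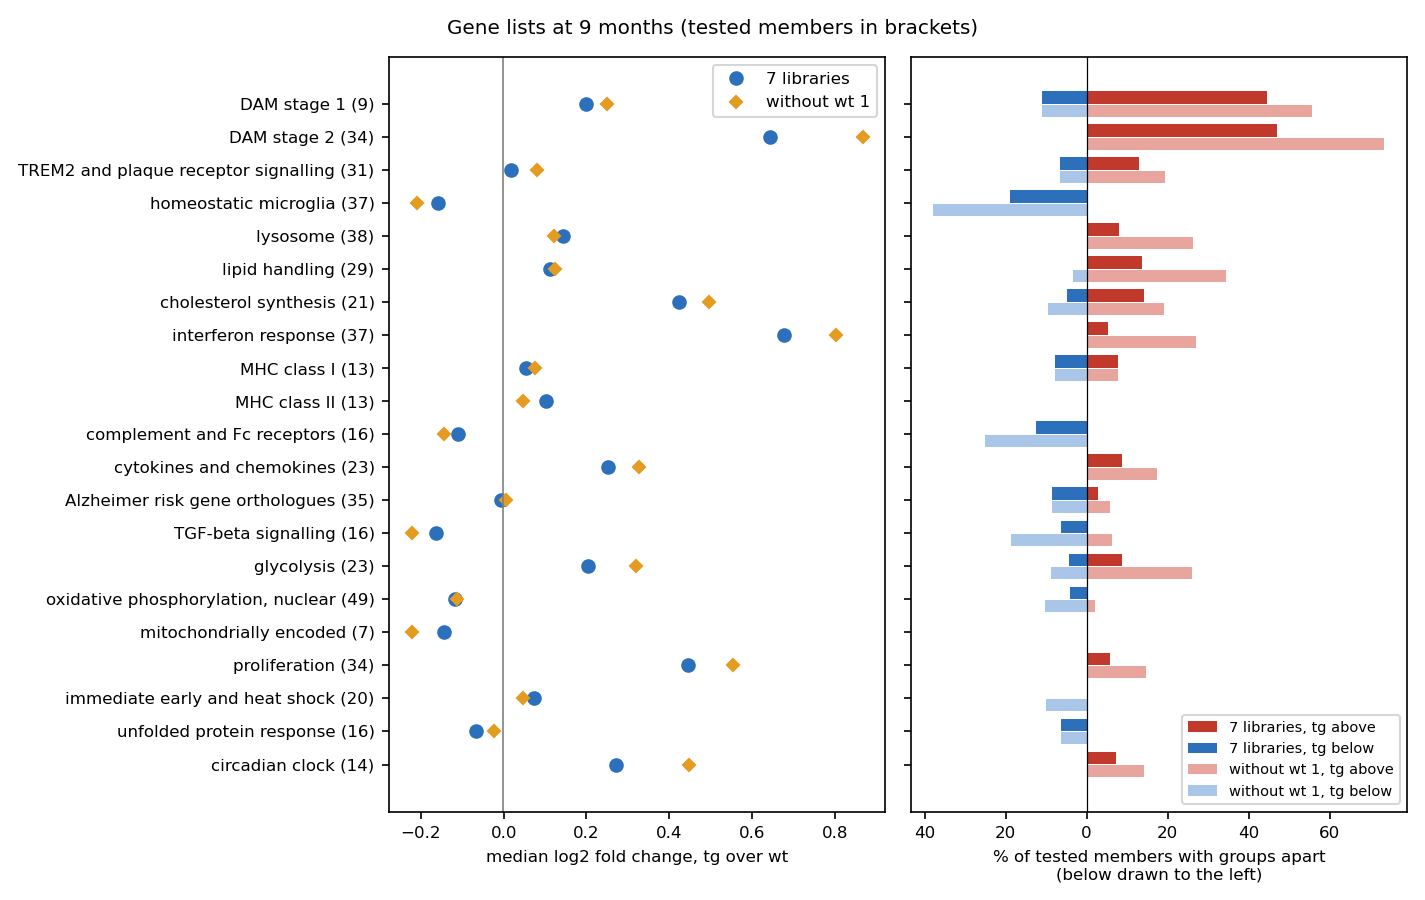
For 21 gene programs, the left panel gives the median log2 fold change of tg over wt at 9 months over the tested members (circles with 7 libraries, diamonds without wt 1, grey line at the median of all genes); the right panel gives the percent of tested members whose tg libraries all lie above (to the right) or below (to the left) all wt libraries. DAM stage 2 has 16 of 34 members separated upwards (25 without wt 1), while over all genes 3.16% lay above and 2.97% below (6.3% and 5.8% without wt 1).

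Interferon genes were higher in 35 of 37 cases with a median of 0.68, but this rested on tg 3: without it 19 of 37 were higher with a median of 0.03. With 7 libraries 2 were separated, Irf9 and Ifi27l2a, and without wt 1 10 were. Of all tested genes 3.16% were separated upwards with 7 libraries and 6.3% without wt 1. Ifit2, an interferon-induced RNA-binding protein, was at 33.5, 54.2 and 119.5 CPM in tg, 54.3 CPM in wt 1 and 18.5, 26.4 and 12.8 CPM in wt 2_4, 3 and 5. Usp18, a negative regulator of the response, was at 21.7, 19.3 and 79.6 CPM in tg, 31.1 CPM in wt 1 and 9.78, 11.6 and 13.5 CPM in wt 2_4, 3 and 5. Library tg 3 was highest in both, and wt 1 lay above tg 1. The summed level of the list was 1917 CPM in tg 3, 1055 and 1042 CPM in tg 1 and 2, 1219.8 CPM in wt 1 and 763 to 1058 CPM in the other wt libraries.

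Antigen presentation and complement showed few separated genes. In MHC class I, 7 of 13 were higher. H2-D1, a classical class I heavy chain whose reads may be shared with near-identical copies, was at 897, 926 and 847 CPM in tg, 806 CPM in wt 1 and 683, 581 and 547 CPM in wt 2_4, 3 and 5 (log2 fold change 0.44, SE 0.14). Tap1, the peptide transporter, was separated downwards at 25.2, 32.6 and 31 CPM in tg and 42.7, 34.1, 36.7 and 48.3 CPM in wt. In MHC class II 9 of 13 were higher (6 without tg 1 and 5 without wt 5) and 0 were separated. Of 16 complement and Fc receptor genes 11 were lower and 2 were separated downwards with TMM factors but 0 with library totals. They were Itgam, given above, and C1qa. Without wt 1 4 were separated downwards. Of all genes 2.97% were separated downwards with 7 libraries and 5.8% without wt 1. C1qa, a subunit of the first complement component, was at 3114, 3037 and 3311 CPM in tg and 3400.0, 3524, 4135 and 3711 CPM in wt 1, 2_4, 3 and 5 (log2 fold change −0.23, SE 0.09). Among 23 cytokine and chemokine genes 14 were higher (10 without tg 3), with 2 separated upwards and 4 without wt 1. Upwards the shares of all genes were 3.16% and 6.3%. Cxcl16, a transmembrane chemokine, was separated upwards with the DAM gene Ccl4 and was at 205, 180.4 and 222 CPM in tg, 175 CPM in wt 1 and 162, 151 and 117 CPM in wt 2_4, 3 and 5.

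Orthologues of human Alzheimer risk genes had no common direction, with 17 of 35 higher and 18 lower. Apoe was the 1 gene separated upwards. Sorl1, a sorting receptor for APP, was at 20.1, 40.2 and 21.9 CPM in tg, 53 CPM in wt 1 and 41.7, 48.4 and 48.9 CPM in wt 2_4, 3 and 5 and was separated downwards (log2 fold change −0.81, SE 0.28). Ms4a6d and Fermt2 were also separated downwards, the latter at most 1.83 CPM in tg and at least 3.56 CPM in wt. In TGF-beta signalling 12 of 16 were lower with a median of −0.16, and Pmepa1 was the 1 separated member. Smad7 and Ski, inhibitors of the pathway, were separated downwards without wt 1, with log2 fold changes of −0.66 and −0.37 over 7 libraries.

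Of glycolysis genes 18 of 23 were higher with a median of 0.20. With 7 libraries 2 were separated upwards and 1 downwards, and without wt 1 6 and 2. The shares of all genes were 3.16% and 2.97%, and without wt 1 6.3% and 5.8%. Pkm, pyruvate kinase, was at 271, 293 and 282 CPM in tg, 254 CPM in wt 1 and 188, 193 and 180.0 CPM in wt 2_4, 3 and 5 (log2 fold change 0.47, SE 0.14). Pfkm, a phosphofructokinase, was separated upwards at 7.92, 5.97 and 14.1 CPM in tg and 3.57, 4.55, 3.76 and 0.562 CPM in wt 1, 2_4, 3 and 5. Ldhb, a lactate dehydrogenase subunit, was separated downwards at 829, 777 and 677 CPM in tg, 892 CPM in wt 1 and 863, 907 and 956 CPM in wt 2_4, 3 and 5 (log2 fold change −0.25, SE 0.10). Pfkfb3, a regulator of glycolysis, gave 0.62 (SE 0.21) with tg 1 below wt 2_4. Nuclear genes of oxidative phosphorylation were lower in 36 of 49 with a median of −0.12 and 2 separated downwards, Sdhc and Atp5e (5 without wt 1). The 7 tested mitochondrially encoded genes were all lower, with a median of −0.14 and overlapping groups, and without wt 3 only 4 of 7 were.

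Proliferation genes were higher in 29 of 34 cases, with a median of 0.45 (21 of 34 without tg 1), at low levels. In 2 the groups were separated upwards, and in 5 without wt 1, where 3.16% and 6.3% of all genes were. Tpx2, a spindle assembly factor, was at 2.82, 5.20 and 8.97 CPM in tg and at 0 in all 4 wt libraries, so it was at least 21-fold higher, taking 3 counts per library as the floor. It passed the filter only through the tg libraries, so its separation was fixed by the filter. Birc5, a cell division gene, was separated at 6.40, 5.68 and 4.79 CPM in tg and 1.1, 4.17, 0 and 1.1 CPM in wt. The others overlapped; Mcm2, a replication licensing factor, was at 15, 14.9 and 12.9 CPM in tg, 13.8 CPM in wt 1 and 6.67, 6.12 and 3.26 CPM in wt 2_4, 3 and 5. Of 14 clock genes 10 were higher, of 20 immediate early and heat shock genes 12, and of 16 unfolded protein response genes 5, with Calr, an endoplasmic reticulum chaperone, separated downwards (log2 fold change −0.26, SE 0.11; overlapping with library totals).

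**Figure D4:**
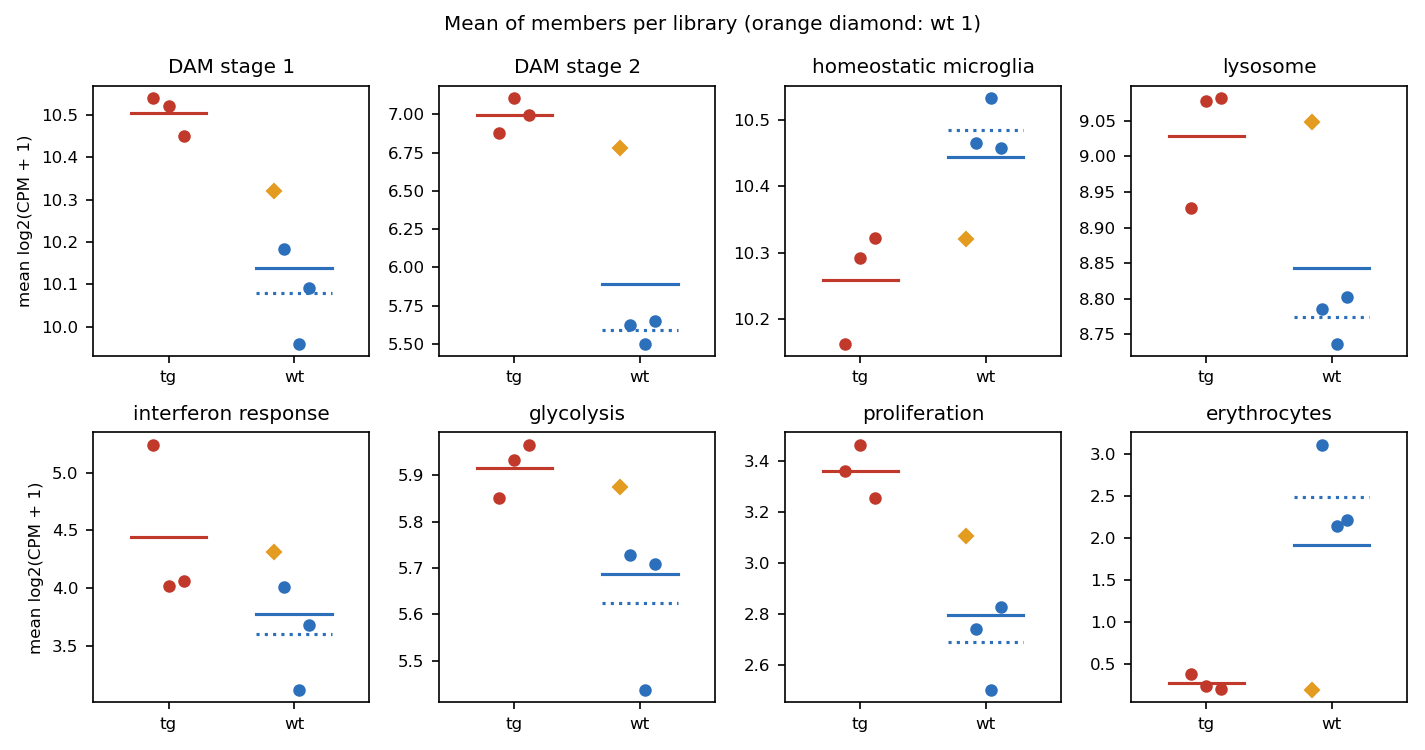
Mean log2(CPM + 1) of the tested members of 8 lists (y axis) in each of the 3 tg and 4 wt libraries; lines are group means, the orange diamond is wt 1 and the dotted line is the wt mean without it. The DAM stage 2 score is 6.88 to 7.10 in tg, 6.78 in wt 1 and 5.50 to 5.65 in the other wt libraries, the interferon score is highest in tg 3 at 5.24, and the erythrocyte score is 0.19 in wt 1 and 0.21 to 0.39 in tg.

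Outside the lists, the genes with the smallest p are given as the leading genes, and none was called by edgeR with 7 libraries. Abhd5, the activator of the triglyceride lipase ATGL, was at 26.8, 45.6 and 38.5 CPM in tg, 13 CPM in wt 1 and 12.3, 13.4 and 13.3 CPM in wt 2_4, 3 and 5 (log2 fold change 1.51, SE 0.27). Its wt libraries lay within 12.3 to 13.4 CPM and wt 1 was among them. Chst2, a sulfotransferase, was at 30.3, 19.1 and 23.9 CPM in tg, 9.28 CPM in wt 1 and 7.88, 3.41 and 4.61 CPM in wt 2_4, 3 and 5 (log2 fold change 1.95, SE 0.43). Wdr12, a ribosome biogenesis factor, and Pcmtd1 were separated with log2 fold changes of 1.09 (SE 0.23) and 1.03 (SE 0.22). Klrb1b, an inhibitory lectin receptor, was at 3.8, 3.95 and 3.19 CPM in tg, and Brip1, a DNA helicase, at 5.96, 1.15 and 9.47 CPM. Both had 0 counts in every wt library, which makes them at least 13.5-fold and 20.5-fold higher. Arnt2, a transcription factor, was at 2.60, 5.20 and 7.28 CPM in tg and at most 0.0696 CPM in wt. Actr3b, an actin-related protein, was at 4.77, 17.3 and 17.4 CPM in tg and at most 0.612 CPM in wt, the only library above 0 being wt 1. Klrb1b, Brip1, Arnt2 and Actr3b passed the filter only through the tg libraries. Their separation was therefore fixed by the filter and is no support for a difference.

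Leading genes in the other direction were Zc3hc1, a nuclear pore protein, at 36, 27.9 and 28 CPM in tg, 77.2 CPM in wt 1 and 62.7, 68.5 and 51.7 CPM in wt 2_4, 3 and 5 (log2 fold change −1.09, SE 0.22), and Lap3. Lap3, an aminopeptidase, was at 85.7, 81.8 and 70.5 CPM in tg, 136 CPM in wt 1 and 124, 122 and 118 CPM in wt 2_4, 3 and 5 (log2 fold change −0.66, SE 0.15). All 3 tg libraries lay below all 4 wt libraries in both. Galnt10, Smu1, Tmem204, Rnf187, Paqr3 and the metalloprotease Adam15 were separated in the same way, with log2 fold changes between −1.40 for Rnf187 and −0.71 for Tmem204. Gclm, a subunit of the enzyme that makes glutathione precursors, was at 1.52, 2.12 and 2.19 CPM in tg, 7.96 CPM in wt 1 and 9.93, 9.53 and 5.17 CPM in wt 2_4, 3 and 5 (log2 fold change −2.06, SE 0.54). Tmem72 was at most 0.192 CPM in tg and at 7.55, 1.29, 7.17 and 2.25 CPM in wt 1, 2_4, 3 and 5. The noncoding A230005M16Rik was at 102, 108 and 111 CPM in tg and 155, 134, 157 and 153 CPM in wt. In Zc3hc1, Lap3, Rnf187 and Tmem72 wt 1 was the highest of the 7 libraries.

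Without wt 1, the leading genes by p after Lpl, Cst7, Clec7a and Apoe were Baiap2l2, a membrane-bending protein, and Hbb-bs, a beta globin, followed by Igf1 and Axl. Baiap2l2 was at 13.2, 11.5 and 7.98 CPM in tg, 7.65 CPM in wt 1 and 0, 0.0696 and 0 CPM in wt 2_4, 3 and 5. Lox, a collagen cross-linking oxidase, was at 5.31, 5.97 and 17.8 CPM in tg, 6.53 CPM in wt 1 and 0, 0 and 0.225 CPM in wt 2_4, 3 and 5. In both wt 1 was at a level like that of tg while the other wt libraries were at or near 0. Jag2, a Notch ligand, was at 1.41, 0.577 and 1.89 CPM in tg, 0.918 CPM in wt 1 and 10.6, 11.2 and 14.1 CPM in wt 2_4, 3 and 5. Spock3, a proteoglycan, was at 0 in all tg libraries and in wt 1 and at 3.71, 5.92 and 3.26 CPM in wt 2_4, 3 and 5. Fam160a2 was at 2.93, 1.83 and 2.69 CPM in tg, 1.02 CPM in wt 1 and 10.5, 12.9 and 12 CPM in wt 2_4, 3 and 5. Here too wt 1 was at the level of tg.

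Markers of red blood cells moved with the groups in the same manner. The 6 tested erythrocyte genes were all lower in tg, with a median log2 fold change of −5.36, and their summed level was 1.15 to 3.19 CPM in tg, 1.22 CPM in wt 1 and 27.6 to 71.7 CPM in the other wt libraries. Hbb-bs was at 0.217, 0.0962 and 0 CPM in tg, 0 in wt 1 and 11.8, 24.8 and 10.9 CPM in wt 2_4, 3 and 5. Hba-a1, an alpha globin, was at 0.108, 0.962 and 0.299 CPM in tg, 0 in wt 1 and 11.1, 29.4 and 8.77 CPM in the other wt libraries. The globin genes share reads with near-identical copies, so their single values are uncertain and their sum is the better measure. Hbb-bs, Hba-a1, Hbb-bt and Hba-a2 passed the filter only through wt 2_4, 3 and 5, so their direction was largely fixed by it. No adjusted p passed 0.05 by edgeR, while DESeq2 called Hbb-bs with all 7 libraries and, without wt 1, Hbb-bs, Hba-a1, Hbb-bt and Hba-a2, with adjusted p-values of 2.45e-08, 6.14e-06, 0.00218 and 0.0119. So the same 4 libraries, tg 1, 2 and 3 and wt 1, had high Cst7 and Clec7a and little globin RNA, and the part of red cell carry-over in these results was not tested.

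Other cell types were measured by their markers, and their summed levels overlapped between the genotypes. Choroid plexus and ependymal genes were lower in all 7 cases with a median of −0.98, but their sum was 3502 CPM in wt 3 and 7.42 CPM in wt 5, and without wt 3 5 of 7 were higher. Ttr, transthyretin and the main choroid plexus transcript, was at 433, 429 and 532 CPM in tg, 776 CPM in wt 1 and 351, 1966 and 0 CPM in wt 2_4, 3 and 5. Neutrophil markers (7 of 11 higher, none separated) summed to 427 to 595 CPM in tg and 231 to 503 CPM in wt, with wt 1 lowest and Mpo and Elane at 0 in every library. Border-associated macrophage markers (5 of 11 higher, none separated) summed to 259 to 306 CPM in tg and 235 to 349.9 CPM in wt. Their defining marker Mrc1 was at 39.8, 33.2 and 44.6 CPM in tg, 7.04 CPM in wt 1 and 39.8, 9.53 and 17.9 CPM in wt 2_4, 3 and 5. F13a1 was at 27.5, 23.1 and 25.1 CPM in tg, 2.75 CPM in wt 1 and 52.2, 19.1 and 24.3 CPM in wt 2_4, 3 and 5. Library wt 1 was the lowest library in both, and Siglec1 was at 0 throughout.

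Monocyte markers (3 of 5 tested higher) summed to 21.0 to 31.8 CPM in tg and 13.1 to 25.9 CPM in wt, with S100a6 separated upwards and S100a4 at 0. Lymphocyte genes summed to 1061 to 1143 CPM in tg and 969 to 1411 CPM in wt, of which Ighm made up most, while Cd3g and Cd8a were at 0. For neurons the sums were 34.3 to 40.4 CPM in tg and 19.9 to 50.5 CPM in wt. The astrocyte sums, 434 to 469.9 CPM in tg and 441 to 479 CPM in wt, were mostly Slc1a3. The mean log2(CPM + 1) over the 11 astrocyte genes was 3.46 to 3.61 in tg and 2.68 to 3.33 in wt, without overlap, with 7 of 11 higher, a median log2 fold change of 0.52 and 0 separated. The astrocyte marker Gfap was at 14.1, 10.1 and 8.18 CPM in tg, 12.2 CPM in wt 1 and 2.96, 3.62 and 11.4 CPM in wt 2_4, 3 and 5, with overlapping groups. Oligodendrocyte genes were higher in 9 of 11 cases, with a median of 0.24 and 0 separated. Sums were 394 to 457 CPM and 284 to 510.1 CPM for oligodendrocytes, and 754 to 997 CPM and 838 to 994 CPM for vascular cells. Of 11 vascular genes 7 were lower, but without wt 3 7 were higher and without tg 2 6 were. Kdr and Cdh5, an endothelial receptor and an endothelial cadherin, were separated downwards. Kdr was at 4.66, 2.60 and 0 CPM in tg, 6.32 CPM in wt 1 and 9.02, 9.40 and 10.3 CPM in wt 2_4, 3 and 5, and Cdh5 was at 0 in tg and 1.43, 1.06, 1.32 and 0.45 CPM in wt. The part of these cells in the differences above was not tested.

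The ages of the study place the difference at 9 months beside the younger groups. Cst7 was at 12.7 ± 1.89 CPM in tg and 10.6 ± 3.76 in wt at 4 months, then 169.9 ± 28.2 in tg and 13.1 ± 0.942 in wt at 6 months, and 433 ± 62.2 in tg and 86.1 ± 135 in wt at 9 months (mean ± SD over 4 libraries, 3 in tg at 9 months, scaled over 23 libraries). The wt 1 library at 9 months, at 288 CPM on this scale, lay above every tg library at 6 months, whose highest was 195 CPM. For Lpl the levels were 13.7 ± 1.23, 52.9 ± 10.8 and 165 ± 16.5 CPM in tg at the 3 ages, and 14.2 ± 8.20, 21.1 ± 14.8 and 29.9 ± 19.1 CPM in wt. Clec7a was at 22.1 ± 3.03, 84.3 ± 18.5 and 203 ± 6.05 CPM in tg and 16.8 ± 8.23, 25.1 ± 7.82 and 65.3 ± 64.3 CPM in wt. The levels of Apoe were 1178 ± 287, 2542 ± 522 and 5411 ± 425 CPM in tg and 1017 ± 252, 1574 ± 507 and 2222 ± 967 CPM in wt. In all 4 genes the tg mean was higher at each later age, and so was the wt mean, which includes wt 1 at 9 months. For Lpl the wt rise after 6 months rested on wt 1. Without it the Lpl wt mean at 9 months was 21.0 CPM on the scale of the 7 libraries. On that scale the means of Cst7, Clec7a and Apoe without wt 1 were 19.5, 34.3 and 1820 CPM, still above 6 months.

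Whether the genotype difference at 9 months differed from that at a younger age was tested as an interaction over 23 libraries with edgeR. Against 6 months 0 genes (0%) passed, also without wt 1 (0%), with 553 and 603 genes at an unadjusted p under 0.05. DESeq2 called 9 with all 23. Against 4 months 0 (0%) passed with all libraries (415 at an unadjusted p under 0.05, 4 called by DESeq2) and 1 (0.00732%) without wt 1. That gene was Cst7. Its difference was larger at 9 months by 2.08 (SE 0.94) on the log2 scale with wt 1 and by 4.25 (SE 0.41) without it, with an adjusted p of 2.58e-05. Against 6 months the change in the Cst7 difference was −1.36 (SE 0.93) with wt 1 and 0.81 (SE 0.40) without it, so its sign depended on that library. For Lpl it was 1.14 (SE 0.67) and 1.68 (SE 0.64), and for Apoe 0.59 (SE 0.39) and 0.92 (SE 0.36), positive in both. The comparisons at the 3 ages share no libraries, while the 2 interaction tests share the libraries of 9 months.

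**Figure D5:**
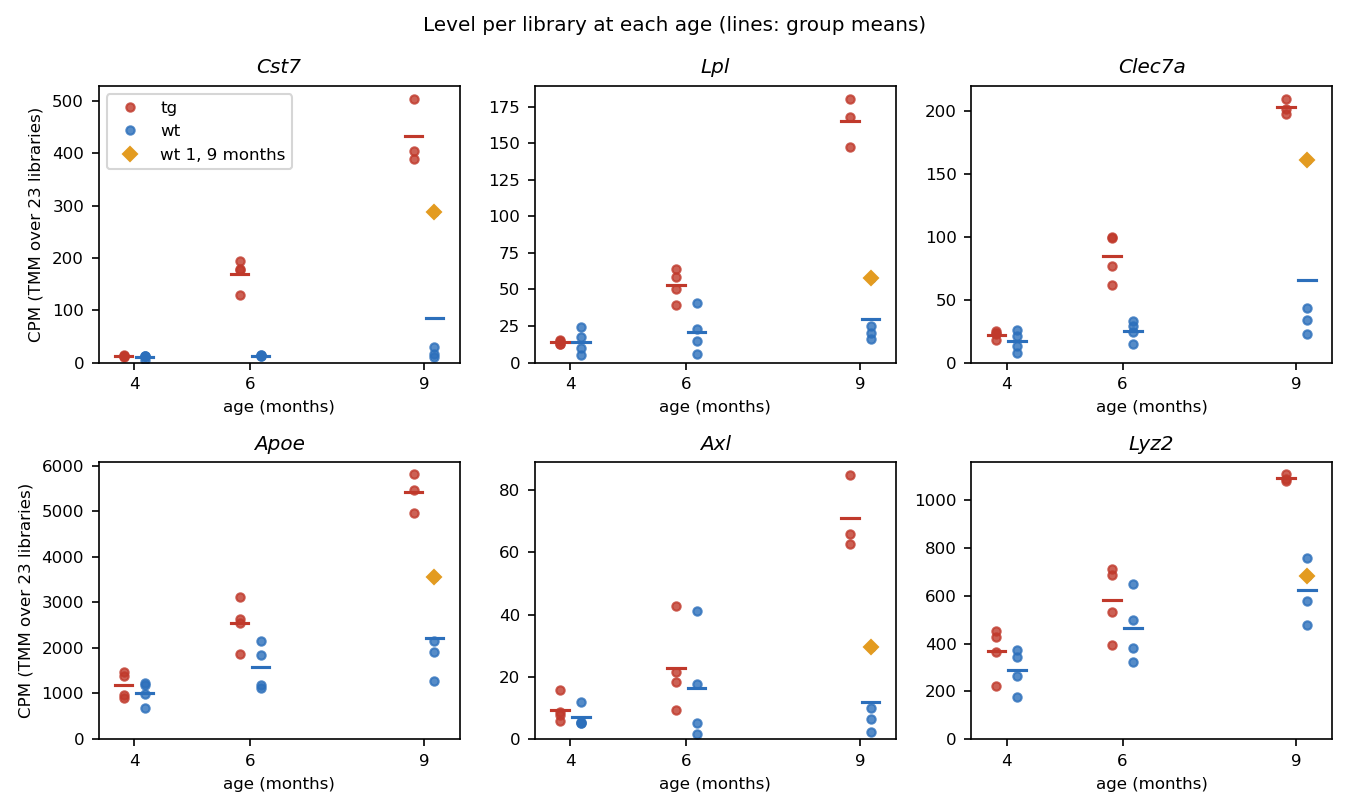
CPM of 6 genes (y axis, linear, from 0, scaled over 23 libraries) at 4, 6 and 9 months of age (x axis) in tg (red) and wt (blue); each point is a library, short lines are group means and the orange diamond is wt 1 at 9 months. At 9 months all tg libraries lie above all wt libraries in each of the 6 genes, and wt 1 is the highest wt library in all of them except Lyz2.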

How the data were processed

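RNA of sorted hippocampal microglia was sequenced in 24 libraries, of which 7 form this comparison. The authors deposited raw counts per gene, per the file headers and the values; the submitters' processing notes name FastQC 0.11.9, cutadapt 2.10, TopHat, SAMtools 1.10, Picard 2.13.2, HTSeq 0.11.0 and the build GRCm39. The annotation release and the strand setting of the counting are not recorded in the labels, so reads of overlapping, antisense or near-identical genes cannot be told apart. Counts per symbol were read from the deposited table of the series; columns with no sample numbered 0.

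Genes with at least 1 CPM in at least 3 of the 7 libraries were fitted with edgeR 4.0.16 (TMM factors, robust quasi-likelihood test, Benjamini-Hochberg adjustment over 13653 genes, threshold 0.05) in R 4.3.3. All log2 fold changes, SEs and p-values are from this test unless another tool is named, with n = 3 tg and 4 wt libraries. The SE is the absolute log2 fold change divided by the square root of the test's F statistic, not a separately fitted error. For genes with 0 counts in a group it is a rough guide only. Precision is limited by totals of 9193425 to 14198506 counts and by the number of libraries. Interactions with age came from 6 group means over 23 libraries. DESeq2 1.42.0, limma 3.58.1 (voom), other factors, filters and thresholds, a replicate block, the low-count library tg 4 and the removal of each library in turn were alternatives. The procedure was tested on simulated data. Motifs and figures were made in Python 3.11.15 with matplotlib 3.10.9.

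The members and gene lists were chosen with earlier results of these data known. Genes named are the 12 in each direction that lead by p with a mean of at least 1 CPM in 1 group, up to 8 in each direction without wt 1, up to 6 by p per program list, all DAM and homeostatic genes, construct genes, sort antigens, the most abundant markers of other cell types, and genes near 0 in 1 group with at least 5 CPM in the other. Marker genes at 0 or with separated groups, and separated members of a list, were named after their values were seen. Some genes are not reported here.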

Additional observations from a re-analysis of the deposited data

Results flagged for a closer look

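The wt group of 4 libraries was checked for single libraries whose gap to the nearest other library was above the critical value of Dixon's test, in 83 genes and 11 list scores. Chance sets apart about 1 in 20 groups. The genes are those named here, several of which were chosen because they separate most strongly without wt 1, so the number set apart is no test of that library. In 13 genes and 1 score a library was set apart, and in 9 of the 13 genes it was wt 1, in 3 wt 2_4, in 1 wt 5 and in 0 wt 3. In wt 1 the high values were 296 CPM for Cst7, 166 CPM for Clec7a, 21.2 CPM for Igf1, 15.1 CPM for Gpnmb, 65.1 CPM for Ccl4, 58.1 CPM for Csf1, 1245 CPM for Hexa, 7.65 CPM for Baiap2l2 and 6.53 CPM for Lox. Its DAM stage 2 score, the mean log2(CPM + 1) over the list, was 6.78. In wt 2_4 Capg was low at 55.3 CPM, A230005M16Rik was low at 134 CPM and Pfkfb3 was high at 127 CPM, and in wt 5 Galnt10 was high at 44.8 CPM.

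The genotype difference of Cst7 was larger at 9 than at 4 months by 4.25 on the log2 scale without wt 1, by an interaction test in edgeR with an adjusted p of 2.58e-05. With all 23 libraries 0 genes passed this test, and the smallest adjusted p was 0.999995. Library wt 1 was noticed for its levels of DAM genes, Cst7 among them, so the value without it is not independent evidence.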

How the results depend on the processing

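With all 7 libraries edgeR called 0 genes in either direction under RLE factors, library totals, 4 filters on low counts, the fit over 23 libraries, counts per gene ID and a threshold of 0.1. DESeq2 called 21 higher and 8 lower, limma-voom called 1 higher, and leaving out each library gave 0 to 3 higher, the 3 coming without wt 1, and 0 lower. Without wt 1, the 3 higher and 0 lower calls became 9 and 1 with no filter, 6 and 1 with a minimum of 5 CPM, 69 and 23 with DESeq2, 5 and 0 with limma-voom, 4 and 0 in the fit over 23 libraries and 8 and 1 with the low-count library tg 4 added. Leaving out a further library gave 0 to 3 higher and 0 lower. With all 23 libraries DESeq2 found 9 genes whose difference at 9 months departed from that at 6 months and 4 against 4 months, and edgeR found 0 and 0. Without wt 1 edgeR found 0 and 1. The cause of these shifts was not tested.

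Of 1751 alternative values for 88 genes, 1719 kept their direction and their side of the threshold, 24 passed it in the same direction and 8 changed sign, in 5 genes. The main fit called 0 genes, so none could lose a call, and keeping the side of the threshold means staying uncalled. Many of the 88 genes were named for their small p in these data, so the count is no independent measure of stability. Csf1 was at −0.65 with the replicate block and −0.091 to 0.99 with each library left out, negative without tg 2. Trem2 was at −0.21 with tg 4, −0.075 with the block and −0.013 to 0.11 with each library left out, negative without wt 2_4. With tg 4, Ctsd was at −0.052, B2m at −0.097 and Cd9 at −0.10.

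Numbers 1 and 3 occur in both genotypes. A fit with the replicate block called 0 higher and 0 lower (374 at an unadjusted p under 0.05 by edgeR). Deviations from the group means correlated across genes by 0.0239 for number 1 and 0.0517 for number 3. For tg 2 and wt 2_4 the correlation was 0.0432, and all other pairs of libraries lay between −0.0546 and 0.0272. These were small values, but the highest for wt 1, wt 3 and wt 2_4. The main fit did not take the numbers as a pairing, and whether they mark one was not tested. Without wt 1 a single number is shared and no block could be fitted.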
